A study of Bos taurus with 40 samples.

Results

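The 6 genes described here are the mitochondrially encoded respiratory chain genes COX1 (ENSBTAG00000043561), COX2 (ENSBTAG00000043556), COX3 (ENSBTAG00000043560), CYTB (ENSBTAG00000043550), ND1 (ENSBTAG00000043558) and ATP6 (ENSBTAG00000043584). They were chosen by these identifiers, and all 6 were listed in all 40 libraries, among 13781 genes listed in at least 1 period. Jejunal epithelium of purebred Holstein Friesian bulls was scraped from the gut wall after slaughter, and 1 RNA library was sequenced per bull. RES Period 1 bulls (n = 10) were fed a restricted allowance for 125 days to grow at 0.6 kg per day, and ADLIB Period 1 bulls (n = 10) had feed ad libitum over the same 125 days. RES Period 2 bulls (n = 10) came from the restricted feeding and then had feed ad libitum for 55 days, and ADLIB Period 2 bulls (n = 10) had feed ad libitum in both periods. All 4 groups were offered the same diet of 70% concentrate and 30% grass silage. The labels name jejunal epithelium as the tissue but muscle in the text on RNA extraction, and they count fewer bulls than libraries. No gene other than these 6 carried a symbol here, so the tissue could not be checked against marker genes and the nuclear genes of the respiratory chain were not analysed here.

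The mitochondrial genome encodes a small core set of proteins of oxidative phosphorylation, and nuclear genes encode the other subunits. Electrons pass from complex I through complex III to complex IV, which hands them to oxygen, and the proton gradient built on the way drives ATP synthase. In absorptive epithelium this ATP pays for the ion pumping on which much nutrient uptake rests. ND1 is a membrane subunit of complex I, CYTB is the core of complex III, COX1, COX2 and COX3 form the core of complex IV, and ATP6 is part of the proton channel of ATP synthase. All 6 are read from the heavy strand promoter as long precursor transcripts that are then cut into separate RNAs. In the RefSeq annotation of assembly ARS-UCD2.0 they follow each other on the mitochondrial genome in the order ND1, COX1, COX2, ATP6, COX3 and CYTB. The deposited files use UMD3.1, so no coordinates are given. ATP6 overlaps ATP8 in the mitochondrial genome and the nuclear genome holds copies of mitochondrial sequence, and how reads shared with these were counted is not given in the sources used here.

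The deposited value of a gene was its reads scaled to a common library size (CPM), set within the 20 libraries of a period, and whole reads were recovered from it. Libraries held 4431390 to 8295900 reads on listed genes. The scaling factors ran from 0.587 to 1.15. RES Period 2 replicate 1 stood apart, with the lowest factor (0.587) and 585 listed genes at 0 reads, against 87 or fewer in the other 39 libraries. ADLIB Period 2 replicate 10 had the next lowest factor (0.722). As these are bulk libraries, fewer cells of a type and less RNA per cell cannot be told apart.

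Together the 6 genes took between 2.53% and 23.5% of the reads of a library on listed genes, with a median of 6.15% over the 40 libraries. All shares given here are of that total. The summed share was 7.16% ± 2.66 (SD, n = 10) in ADLIB Period 1, where it ran from 3.35% through a median of 6.63% to 12.4%. In RES Period 1 it was 7.83% ± 3.31 (SD, n = 10), from 4.17% through 6.85% to 13.6%. In the first period the groups covered nearly the same range. In ADLIB Period 2 the share was 6.69% ± 6.08 (SD, n = 10), from 2.53% through a median of 4.86% to 23.5%. In RES Period 2 it was 7.70% ± 2.98 (SD, n = 10), from 4.27% through 7.21% to 14.2%. The large SD of ADLIB Period 2 came with 1 library: replicate 10 stood at 23.5% (95% Wilson interval 23.51 to 23.57), and the other 9 ended at 7.64%. The lowest library, replicate 6 of the same group, held 2.53% (95% Wilson interval 2.521 to 2.544). These intervals cover counting error only.

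**Figure D1:**
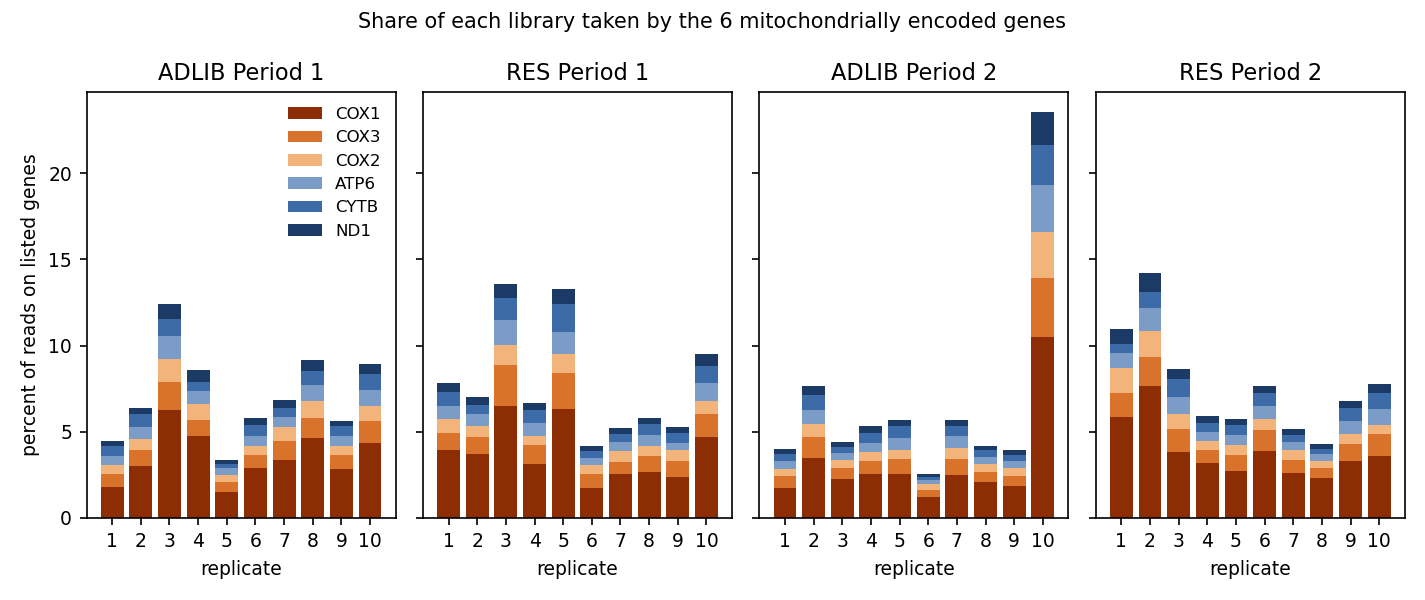
Percent of the reads on listed genes taken by each of the 6 genes (stacked colours) in each of the 40 libraries, by group and replicate number. ADLIB Period 2 replicate 10 reached 23.5%, and the other 39 libraries lay between 2.53% and 14.2%.

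COX1 alone took 1.23% to 10.5% of the reads of a library, and it had more reads than the other 5 genes in 40 of 40 libraries. It was the gene with the most reads of all listed genes in 21 of 40 libraries and ranked between 1 and 5 in every library. COX3 was among the 10 genes with the most reads in 38 libraries, ATP6 in 23, COX2 in 16, CYTB in 16 and ND1 in 3. ND1 had the widest range of ranks, from 7 to 55. Between 3 and 6 of the genes were among the top 20 of each library, and in RES Period 2 all 6 were there in all 10 libraries. The commonest order by reads was COX1, COX3, COX2, ATP6, CYTB and ND1, found in 12 libraries. The order COX1, COX3, CYTB, ATP6, COX2 and ND1 was found in 10. Thus COX1, COX3 and ND1 held the first, second and last places in most libraries, and COX2, ATP6 and CYTB traded the places between. Ranks and shares are of reads and were not corrected for gene length.

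The rank of COX1 differed between the diets at the end of Period 2. It was first in 1 of 10 ADLIB Period 2 libraries and in 8 of 10 RES Period 2 libraries (Fisher's exact test, two-sided, p = 0.00548, adjusted over both periods 0.011). In Period 1 it was first in 6 of 10 libraries of each diet (Fisher's exact test, p = 1.0). The mean rank at the end of Period 2 was 3.8 ± 1.55 (SD, n = 10) in ADLIB and 1.2 ± 0.42 (SD, n = 10) in RES. This difference of -2.6 ranks had a two-sided permutation p = 0.00074 (adjusted over 12 rank tests 0.00888). The corresponding Period 1 means were 2.1 and 1.9, with adjusted permutation p = 0.966. Whether the rank difference itself differed between the periods was not tested. The other 5 genes had lower mean ranks by number (nearer the top) in RES at the end of Period 2, by 1.1 to 7.0 ranks, and none passed (adjusted permutation p from 0.575 to 0.897). These rank tests were chosen after the ranks had been seen.

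**Figure D2:**
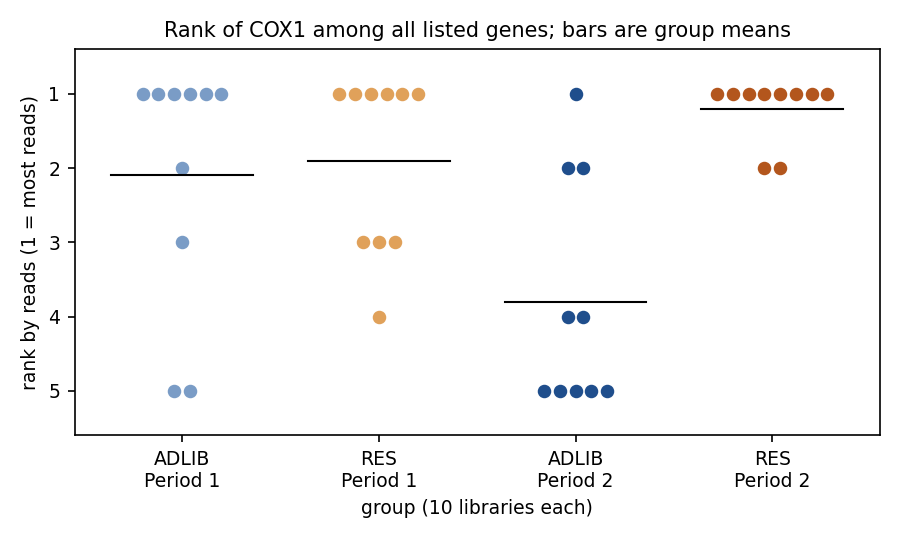
Rank of COX1 by reads among all listed genes (1 is the gene with the most reads) in the 10 libraries of each group, with the group mean as a bar. The mean was 3.8 in ADLIB Period 2 and 1.2 in RES Period 2, against 2.1 and 1.9 in Period 1.

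A rank also moves with the genes around it. In ADLIB Period 2, 4 other genes had more reads than COX1 in at least 1 library. As they were picked for high reads in that group, the choice itself favours a higher share there, and their values are a description. Those 4 genes together took 10.1% ± 3.32 (SD, n = 10) of the reads in ADLIB Period 2 and 6.54% ± 3.42 (SD, n = 10) in RES Period 2. In Period 1 they took 8.30% ± 4.07 in ADLIB and 10.1% ± 3.18 in RES (SD, n = 10 each). Their lowest summed share was 0.276%, in RES Period 2. COX1 itself took 3.07% ± 2.67 (SD, n = 10) in ADLIB Period 2 and 3.88% ± 1.66 (SD, n = 10) in RES Period 2. Its medians were 2.37% and 3.44%, and the ADLIB mean includes replicate 10 at 10.5%. The part of these 4 genes in the rank difference was not tested.

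The level of each gene was compared between RES and ADLIB at the end of Period 1, when feeding still differed. The test was limma on log2(CPM + 1), with Benjamini-Hochberg adjustment over all 13685 genes and a call at a false discovery rate (FDR) under 0.001. COX1 in ADLIB Period 1 ran from 15637 through a median of 32009 to 67200 CPM. In RES Period 1 it ran from 22150 through 32809 to 79319 CPM. The groups overlapped nearly throughout, with 1 RES library above the highest ADLIB library. CYTB ran from 2879 through 5739 to 10605 CPM in ADLIB Period 1. In RES Period 1 it ran from 4173 through 6193 to 17181 CPM, with 2 libraries above the highest ADLIB library. COX2 ran from 4430 through 6854 to 14528 CPM in ADLIB and from 4820 through 6417 to 13744 CPM in RES, with no RES library above the ADLIB range.

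The other 3 genes also overlapped between the diets. COX3 ran from 6777 through 9011 to 17607 CPM in ADLIB Period 1 and from 6613 through 9943 to 29455 CPM in RES Period 1. ATP6 ran from 4056 through 6292 to 14192 CPM in ADLIB and from 4564 through 6849 to 18121 CPM in RES. ND1 ran from 2226 through 4459 to 9782 CPM in ADLIB and from 2817 through 4245 to 10296 CPM in RES. For ND1 the RES median was below the ADLIB median, and for COX3 and ATP6 it was above.

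None of the 6 genes was called in Period 1, and limma called 0 of all genes at this FDR (0%). The authors, with edgeR's likelihood ratio test at the same FDR, do report genes that differed in this comparison. That test on the recovered reads called 0 genes here, and the reason for the difference was not tested. The limma log2 fold change, RES minus ADLIB, was 0.28 (SE 0.29) for CYTB, 0.25 (SE 0.29) for COX3 and 0.12 (SE 0.29) for ATP6. It was 0.10 (SE 0.38) for COX1, 0.10 (SE 0.30) for ND1 and -0.03 (SE 0.27) for COX2. Every adjusted p from limma was 0.999. No gene of the 6 had an unadjusted p under 0.05, against 3.61% of all genes. The 95% intervals were wide. That of COX1 ran from 0.616-fold to 1.86-fold, and that of COX2 from 0.663-fold to 1.46-fold. The median of the 6 fold changes was 0.11 on the log2 scale, and the median of all genes was 0.0015. Leaving out RES Period 1 replicate 3 gave -0.03 for COX1, -0.03 for ND1, -0.03 for ATP6 and -0.13 for COX2. Leaving out ADLIB Period 1 replicate 3 gave 0.09 for COX2, 0.22 for COX1, 0.22 for ND1 and 0.23 for ATP6.

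At the end of Period 2, after 55 days of ad libitum feeding in both diets, all 6 fold changes from limma were above 0, though both edgeR tests on recovered reads gave -0.11 for CYTB and -0.067 for ATP6, and none passed the test. COX1 in ADLIB Period 2 ran from 11254 through a median of 22812 to 145213 CPM. In RES Period 2 it ran from 20104 through 31804 to 99364 CPM. The highest RES value was in replicate 1, the library with the lowest scaling factor, as it was for ND1, COX2 and COX3. By share of reads COX1 was at 5.84% in that library and at 7.68% in RES Period 2 replicate 2. For COX1, 9 of 10 RES libraries were above the ADLIB median, and none was above the highest ADLIB library. COX3 ran from 3626 through 6826 to 47851 CPM in ADLIB Period 2. In RES Period 2 it ran from 5242 through 10198 to 24316 CPM, again with 9 of 10 libraries above the ADLIB median. In ADLIB Period 2, ND1 ran from 1430 through 3054 to 26552 CPM and in RES Period 2 from 2563 through 3820 to 14898 CPM, an 18.6-fold range over the 20 libraries. CYTB ran from 1873 through 4711 to 32228 CPM in ADLIB and from 2603 through 6804 to 10734 CPM in RES. COX2 ran from 2822 through 4401 to 36733 CPM in ADLIB and from 3475 through 5651 to 24088 CPM in RES. ATP6 ran from 2158 through 4999 to 37458 CPM in ADLIB and from 3227 through 6731 to 14949 CPM in RES. For each of the 6 genes, 8 or 9 of 10 RES libraries were above the ADLIB median and all 10 RES libraries lay within the ADLIB range. The top of that range was ADLIB Period 2 replicate 10 for every gene. For COX1 the next highest ADLIB library was replicate 2, at 33365 CPM. RES Period 2 replicates 1, 2, 3 and 6 were above that, from 36273.5 CPM in replicate 6 to 99364 CPM in replicate 1.

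**Figure D3:**
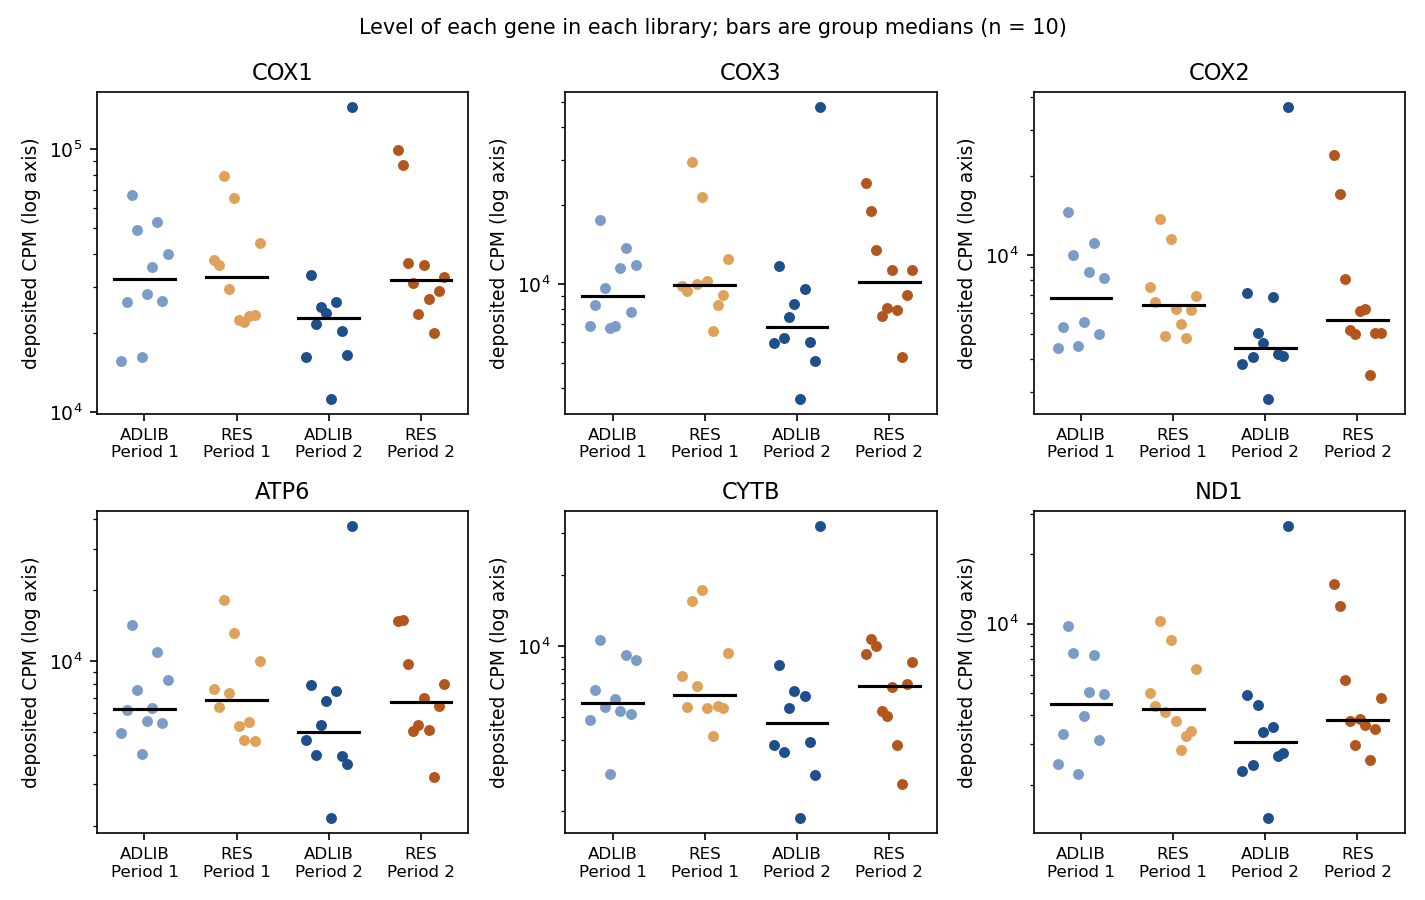
Deposited CPM (log axis) of each gene in each library, by group, with group medians as bars (n = 10). For COX1 the medians were 32009, 32809, 22812 and 31804 CPM in the order of the groups shown, and the highest point of every panel in ADLIB Period 2 was replicate 10.

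The log2 fold change in Period 2 was 0.54 (SE 0.50) for COX1, 0.40 (SE 0.43) for ND1 and 0.38 (SE 0.41) for COX3. It was 0.32 (SE 0.43) for COX2, 0.29 (SE 0.42) for ATP6 and 0.27 (SE 0.41) for CYTB. Every adjusted p from limma was 0.990, over 13605 genes, and 0% of all genes were called. The authors do report a gene that differed in this comparison. Their likelihood ratio test called 0 genes on the recovered reads, and the reason was not tested. The 95% interval of COX1 ran from 0.706-fold to 3.00-fold. No gene of the 6 had an unadjusted p under 0.05, against 2.06% of all genes. The median of the 6 was 0.35 and that of all genes -0.0073 on the log2 scale. Of all genes, 48.3% had a fold change above 0. As the 6 genes move together, their 6 signs are not separate events.

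These values depended on single libraries. Without ADLIB Period 2 replicate 10 the log2 fold changes were 0.82 (SE 0.41) for COX1, 0.72 (SE 0.33) for ND1 and 0.66 (SE 0.31) for COX3. They were 0.62 (SE 0.33) for COX2, 0.59 (SE 0.32) for ATP6 and 0.56 (SE 0.32) for CYTB. All 6 had an adjusted p of 0.836 in that limma fit, and 0% of genes were called. ND1 and COX3 had unadjusted p-values of 0.0401 and 0.0473 there, and 4.33% of all genes were under 0.05. The edgeR quasi-likelihood test without the same library, a fit chosen after seeing the data, gave 0.96 for COX1, 0.89 for ND1, 0.84 for COX2, 0.72 for COX3, 0.63 for ATP6 and 0.54 for CYTB. Its unadjusted p-values were 0.0103, 0.0173, 0.0245 and 0.0229 for COX1, ND1, COX2 and COX3 and 0.0507 and 0.0831 for ATP6 and CYTB, against 6.59% of all genes under 0.05. Adjusted p-values in that edgeR fit ran from 0.750 to 0.773, and 0% of genes were called. Without RES Period 2 replicate 1 the limma values were 0.38 for COX1, 0.25 for COX3, 0.22 for ND1 and 0.12 for COX2. Without ADLIB Period 2 replicate 6, the library with the lowest values, they were 0.13 for ATP6 and 0.10 for CYTB. DESeq2 on the recovered reads gave unadjusted p-values under 0.05 for COX1, ND1 and COX2, against 4.38% of all genes. In that fit DESeq2 had replaced the value of ADLIB Period 2 replicate 10 for those same 3 genes, and the adjusted p-values ran from 0.569 to 0.942.

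**Figure D4:**
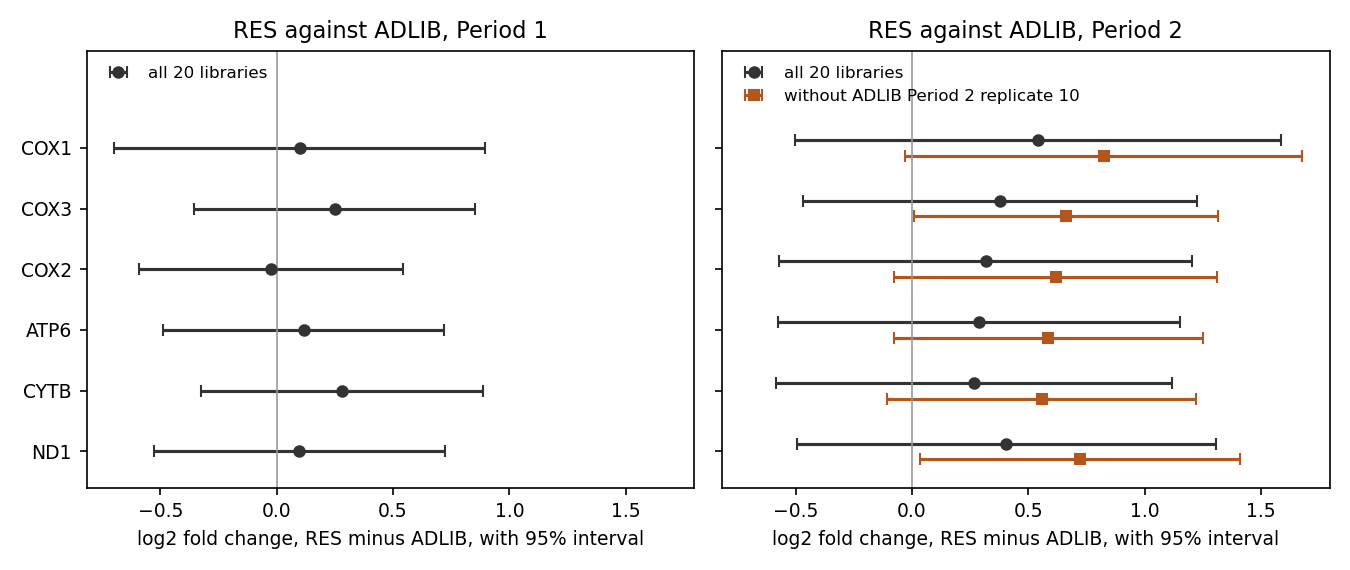
Log2 fold change of RES against ADLIB with its 95% interval for each gene, at the end of each period, from limma. Circles are all 20 libraries and squares, in Period 2, the fit without ADLIB Period 2 replicate 10, in which COX1 moved from 0.54 to 0.82.

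The labels carry a number from 1 to 4 after the letters EOSJ, with 10 libraries to a number, and do not say what it stands for. Within these numbers the COX1 difference at the end of Period 2, RES minus ADLIB in log2(CPM + 1), was 0.89, 1.28, 0.98 and -0.44 for numbers 1 to 4. Number 4 holds ADLIB Period 2 replicate 10, and without that library its value was 0.16. In Period 1 the values were -0.58, -0.09, 0.65 and 0.33. Each rested on 2 to 4 libraries a diet.

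Over time within a diet, no gene of the 6 was called by limma. Levels were first put on 1 scale over the 40 libraries and the 13509 genes listed in both periods. In RES bulls the Period 2 values differed from Period 1 by -0.24 (SE 0.33) for CYTB to 0.06 (SE 0.45) for COX1 on the log2 scale, with adjusted p from 0.929 to 1.00. No gene of the 6 and 5.66% of all genes had an unadjusted p under 0.05, and 0% were called. In ADLIB bulls all 6 limma values were below 0, from -0.39 (SE 0.45) for COX1 to -0.23 (SE 0.39) for CYTB, with adjusted p from 0.868 to 0.904. Among all genes 50.2% had a limma value above 0. As the 6 genes move together, their signs are not separate events. Both edgeR tests gave values above 0 for every gene of the 6 except COX1, up to 0.19 for CYTB. No gene of the 6 and 5.06% of all genes had an unadjusted p under 0.05, and 0% were called. The authors do report a gene that differed over time in ADLIB bulls. Their likelihood ratio test called 0 genes on the recovered reads. Without ADLIB Period 2 replicate 10 the ADLIB values were -0.66 (SE 0.26) for COX2, -0.64 (SE 0.29) for ND1 and -0.54 (SE 0.26) for COX3. Those 3 genes had unadjusted p-values of 0.0182, 0.0404 and 0.047, against 8.04% of all genes under 0.05, with an adjusted p of 0.609 each and 0% of genes called. The edgeR quasi-likelihood test without that library gave values from -0.73 for COX1 to -0.46 for CYTB, with unadjusted p under 0.05 for COX1, ND1, COX2 and COX3, against 8.59% of all genes, adjusted p from 0.539 to 0.615 and 0% of genes called. DESeq2 on all libraries gave unadjusted p under 0.05 for COX3 and ATP6, against 6.45% of all genes, having replaced the value of the same library for both.

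The diet difference in Period 2 was also set against that in Period 1 in 1 limma fit of the 40 libraries. The interaction was 0.45 (SE 0.58) for COX1, 0.35 (SE 0.51) for COX2 and 0.31 (SE 0.54) for ND1 on the log2 scale. For ATP6 it was 0.18 (SE 0.51), for COX3 0.14 (SE 0.49) and for CYTB -0.0062 (SE 0.50). The adjusted p-values ran from 0.864 to 0.998, no gene of the 6 had an unadjusted p under 0.05 against 6.44% of all genes, and 0% were called. Without ADLIB Period 2 replicate 10 the edgeR quasi-likelihood test gave 0.92 for COX2, 0.89 for COX1 and 0.85 for ND1, and 0.21 to 0.49 for the other 3 genes. Its unadjusted p was under 0.05 for COX2 alone (0.0393), against 11.6% of all genes, with adjusted p from 0.408 to 0.879 and 0% of genes called. In limma without that library the values were 0.65 for COX2, 0.73 for COX1 and 0.63 for ND1. The 5 comparisons share libraries, so their values are not independent of each other.

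The 6 genes moved together from bull to bull. Pearson's r between 2 genes, over the 20 libraries of a period and after group means were removed from log2(CPM + 1), ran from 0.799 to 0.981 over the 15 pairs in Period 1, with a median of 0.902. In Period 2 it ran from 0.853 to 0.991, with a median of 0.960. Spearman's rho ran from 0.680 to 0.974 and from 0.752 to 0.965. Permutation p-values of r ran from 1e-05, the smallest that the permutations can give, to 6e-05. Over the family of 30 pairs, counting both coefficients, no adjusted p was above 0.00088. Pairs share the library total and its scaling. With totals taken without the 6 genes the median r was 0.906 in Period 1 and 0.953 in Period 2. Without the 2 libraries farthest from the median of the first gene of each pair it was 0.855 and 0.911. The lowest r there was that of CYTB and COX2, at 0.709 in Period 1 and 0.690 in Period 2. Within the 4 label numbers, over 10 libraries each, the median r ran from 0.927 to 0.975.

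**Figure D5:**
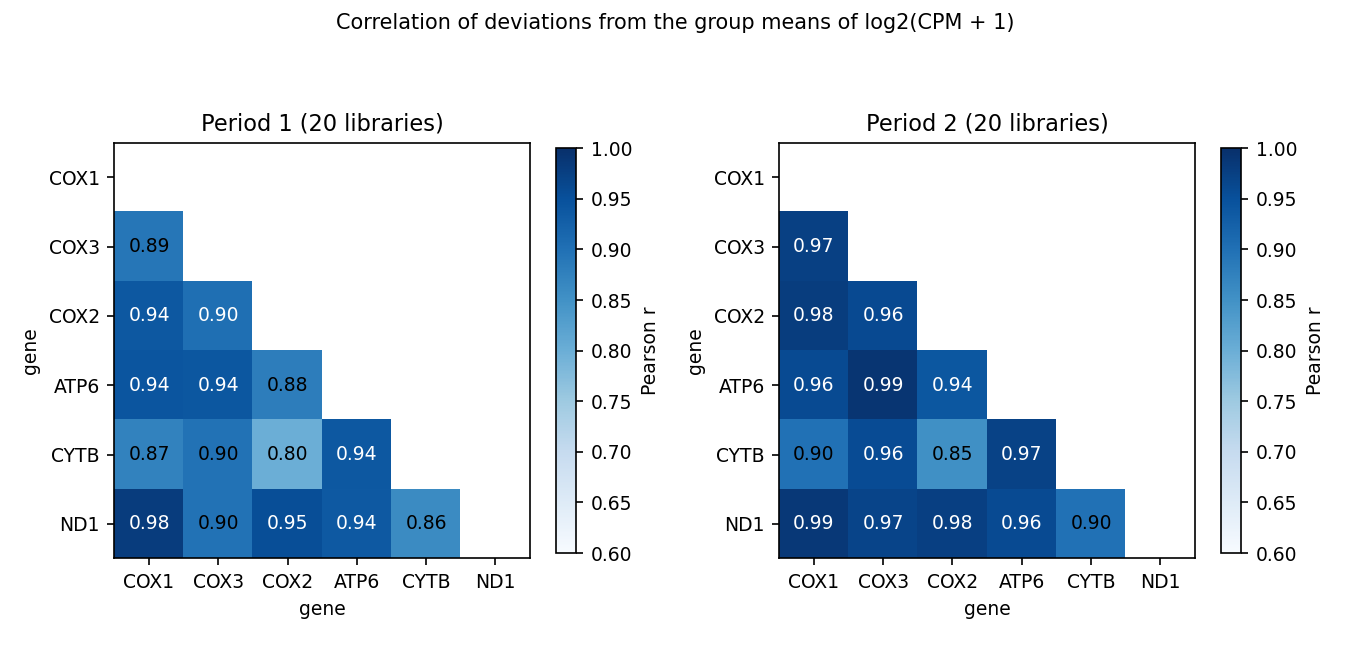
Pearson's r between the genes over the 20 libraries of each period, from deviations from the group means of log2(CPM + 1). The palest cell of both panels is CYTB with COX2, at 0.80 in Period 1 and 0.85 in Period 2.

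CYTB and COX2 were the least alike pair in both periods. ND1 and COX1, complex I and complex IV genes, had r = 0.981 in Period 1 and 0.986 in Period 2. COX3 and ATP6, which are neighbours on the mitochondrial genome, had r = 0.940 and 0.991. COX1 and COX2, which belong to the same complex, had r = 0.939 and 0.978. A single axis held 92.7% of the variance of the 6 genes in Period 1 and 95.9% in Period 2. The SD between bulls of 1 group was 0.56 to 0.68 on the log2 scale in Period 1 and 0.86 to 0.99 in Period 2. The median SD of all listed genes was 0.42 and 0.40. That of the 100 other genes with the highest median levels was 0.51 and 0.46. COX1 varied more than 68% of those 100 genes in Period 1 and more than 74% in Period 2. The Period 2 values include ADLIB Period 2 replicate 10, which lay far above the rest of its group for all 6 genes. Whether the spread was wider in Period 2 without that library was not tested.

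Ratios of 2 genes within a library take out whatever the genes share. The ratio of ND1 to COX1 had an SD within groups of 0.13 on the log2 scale in Period 1 and 0.19 in Period 2. The ratio of CYTB to COX2 had SDs of 0.38 and 0.51. In reads, COX2 to CYTB ran from 0.588 in RES Period 2 replicate 10 to 2.60 in RES Period 2 replicate 1, the library with the most genes at 0. Of 30 ratios compared between the diets, the smallest permutation p was 0.0248, for COX2 to COX3 in Period 1 (-0.44 in ADLIB and -0.71 in RES on the log2 scale, n = 10 each, adjusted permutation p = 0.399). The next was COX1 to COX2 in Period 2, at 2.16 in ADLIB and 2.39 in RES (permutation p = 0.0266, adjusted 0.399). No ratio passed the correction. The ratios were chosen after the data had been seen.

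Among the 13503 other genes listed in both periods, the likeness to the 6 genes was measured as Pearson's r with their mean deviation over the 20 libraries of each period. The median r of these genes was -0.00076 in Period 1 and -0.035 in Period 2. ENSBTAG00000043571 was most alike, with r = 0.939 and 0.984, followed by ENSBTAG00000043577 with 0.933 and 0.961. The medians of ENSBTAG00000043571 were 2026 and 1762 CPM. Most opposite were ENSBTAG00000022294, with r = -0.789 and -0.863, and ENSBTAG00000012068, with -0.786 and -0.758. With totals taken without the 6 genes, the opposite pair had r = -0.635 and -0.739, and -0.756 and -0.656. In both periods at once, 5 genes had r above 0.8 and 0 had r below -0.8. The identifiers of those 5 genes fall within the same run of numbers as those of the 6 genes. Other mitochondrial genes could not be left out of this ranking, and whether the 5 are such genes was not tested. The files do not pair these identifiers with names. The points share the library total and its scaling, and these values are a description.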

How the data were processed

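Single-end RNA-seq libraries of 40 bulls were analysed. The authors trimmed reads (Trim Galore), aligned them to UMD3.1 (TopHat) and counted protein-coding genes (HTSeq). The deposited signal is CPM scaled within a period. It came out as whole reads in 100% of values (within 0.02 of a read), which gave 4431390 to 8295900 reads on listed genes per library. Reads on no listed gene are not in these totals. The labels' processing notes also name CASAVA 1.4, Bowtie, SAMtools and edgeR.

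Groups came from the sample titles. Genes were fitted with limma 3.58.1 in R 4.3.3 on log2(CPM + 1), a pseudocount of 1, with an intensity trend. Fits over time used recovered reads under 1 TMM scaling (edgeR 4.0.16). Alternatives included edgeR's likelihood ratio and quasi-likelihood tests and DESeq2 1.42.0. The limma and edgeR diet fits were tested on simulated reads. The interaction fit was tested on real reads in which some genes had been raised. DESeq2, the fits over time and the permutation tests were not tested in this way. Permutation tests drew 100000 resamples. The genes named were the 6 by identifier plus the most alike and most opposite of all others. Of 5 genes per direction in that rule, 2 are printed, since they carry no name. For the same reason other mitochondrial genes could not be left out of that ranking. Members and lists were chosen with earlier results of these data known. Replicate numbers were not treated as pairs of bulls in the main fits. Pathway and marker lists were not analysed here.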

Additional observations from a re-analysis of the deposited data

Results flagged for a closer look

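ADLIB Period 2 replicate 10 lay far from the other 9 libraries of its group, for all 6 genes and for their summed share. The gap to the nearest library, as a share of the group's whole range, was 0.578 for ND1, 0.477 for CYTB and 0.575 for COX1 on the log2(CPM + 1) scale. It was 0.639 for COX2, 0.547 for COX3, 0.545 for ATP6 and 0.757 for the summed percent of reads. All 7 values were above Dixon's 95% critical value for 10 samples. Of 28 groups of values examined this way, 7 passed, all 7 for this library, and chance alone flags about 1 in 20 groups, or 1.4 of 28. As the 6 genes move together, the 7 flags are not separate events. The library held 145213 CPM of COX1, ranked all 6 genes among its top 7 and had 42 listed genes at 0.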

How the results depend on the processing

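No gene of the 6 was called under any alternative run, in any of the 5 comparisons. The alternatives were pseudocounts of 0.25 and 5 CPM, a filter of 1 CPM in every library and edgeR's likelihood ratio and quasi-likelihood tests. Further ones were DESeq2, no TMM scaling, totals without the 6 genes, the label number as a factor and each library left out. FDR under 0.05 or 0.1 was tried in the main limma fit only. DESeq2 without replacement of outlying values gave no p-value for ND1, COX1 and COX2 in RES against ADLIB, Period 2. It also gave none for COX3 and ATP6 in ADLIB bulls over time, so that fit could not call them. The replicate numbers were not treated as pairs in the main fits. The mean r of deviations between libraries of the same number ran from -0.105 to 0.158, with 3 to 6 of 10 pairs over 0.1. Between libraries of different numbers it ran from -0.0066 to 0.0246. With so few pairs these values cannot exclude a shared block. With the number as a replicate block, 0 of the 6 genes were called in each comparison. Over all genes, limma called 0 in each comparison, the likelihood ratio test up to 3, the quasi-likelihood test 0 and DESeq2 up to 3.

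Directions did change. At the end of Period 2, RES against ADLIB, CYTB turned to -0.11 and ATP6 to -0.067 on the log2 scale in both edgeR tests, and to -0.12 and -0.067 in DESeq2 with or without replacement of outlying values. Without ADLIB Period 2 replicate 10 the quasi-likelihood test gave values above 0 for all 6 genes, from 0.54 for CYTB to 0.96 for COX1. This fit and the DESeq2 fit without replacement were chosen after seeing the data. In RES bulls over time, ND1 became 0.13 and COX2 0.18 in both edgeR tests, and 0.14 and 0.20 in both DESeq2 fits. ND1 became 0.0080 without TMM, and COX1 -0.0090 with the label number as a factor. In ADLIB bulls over time, both edgeR tests gave 0.12 for ND1, 0.19 for CYTB, 0.028 for COX2, 0.13 for COX3 and 0.16 for ATP6, where limma gave values below 0. Both DESeq2 fits gave 0.12 for ND1, 0.19 for CYTB and 0.034 for COX2, and without replacement DESeq2 gave 0.14 for COX3 and 0.17 for ATP6. The interaction became -0.25 for COX3 and -0.23 for ATP6 in both edgeR tests, and -0.27 and -0.24 in both DESeq2 fits. For CYTB it became 0.11 with the label number and 0.21 in the quasi-likelihood test without ADLIB Period 2 replicate 10. The cause of these changes was not tested.

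With each library left out in turn, the Period 1 diet value ran from -0.026 to 0.22 for ND1, from -0.034 to 0.22 for COX1, from -0.13 to 0.089 for COX2 and from -0.027 to 0.23 for ATP6. In RES bulls over time it ran from -0.19 to 0.12 for ND1, from -0.10 to 0.19 for COX1, from -0.21 to 0.11 for COX2, from -0.26 to 0.032 for COX3 and from -0.20 to 0.062 for ATP6. The interaction ran from -0.17 to 0.29 for CYTB and from -0.00082 to 0.42 for COX3. The Period 2 diet values stayed above 0 for all 6 genes in these fits. The Period 1 rank difference of COX1 ran from -0.433 to 0.122 ranks. That of Period 2 ran from -2.91 to -2.47, with permutation p from 4e-05 to 0.00112, and its p was 0.00075 within label numbers and 0.00785 within the replicate block. The smallest p came without ADLIB Period 2 replicate 10, the only library of its group with COX1 first. As the rank tests were chosen after the ranks had been seen, these p-values are a description. Without the 2 farthest libraries the median r between the genes was 0.855 in Period 1 and 0.911 in Period 2.

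The 95% intervals of the Period 2 diet values reached from 0.667-fold to 3.00-fold with all libraries. The planned counts for nuclear respiratory chain genes were not run, since no table paired names with identifiers.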
